A study of Homo sapiens with 2 samples.

Results

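HOX genes encode homeodomain transcription factors that lie side by side in 4 clusters, HOXA on chromosome 7, HOXB on chromosome 17, HOXC on chromosome 12 and HOXD on chromosome 2. The members were taken as every probe set that the platform annotation ties to exactly 1 symbol made of HOXA, HOXB, HOXC or HOXD and a number, antisense genes left out. This rule found 44 probe sets of 28 genes, out of 41097 probe sets of 19775 genes with 1 symbol. The HOXB cluster was represented by 10 genes (19 probe sets), HOXC by 9 (9 probe sets), HOXD by 8 (15 probe sets) and HOXA by HOXA2 alone. The other 11 of the 39 HOX genes in RefSeq, 10 of them in HOXA, were not analysed here.

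RNA came from a pair of stably transfected populations of Panc1, an adherent human line from a pancreatic ductal adenocarcinoma. Panc1/syk-wt carried wild-type SYK, a cytoplasmic tyrosine kinase best known from immune receptor signalling, and Panc1/mock carried the empty vector. Both were grown without other treatment in hygromycin, the drug that selects for the vector, and each was hybridised to 1 Affymetrix expression array. The labels call each a population, and do not say from how many clones it grew. The comparison addresses which transcripts differ once SYK is returned to these cells, which the series calls drug-resistant in their mock form.

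In the embryo, the order of HOX genes along a cluster matches the order in which they are active from head to tail, with paralogue group 1 at the anterior end and group 13 at the posterior end. Genes with the same number in different clusters are paralogues with closely related homeodomains. In adult and cancer cells, stretches of a cluster can be kept open by Trithorax complexes or closed by Polycomb complexes, and retinoic acid is the classical inducer of the anterior genes. HOX proteins bind DNA together with TALE homeodomain partners of the PBX, MEIS and PKNOX families.

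A single array per population leaves the spread between cultures unmeasured and allows no test, and population, RNA preparation and array cannot be told apart. Across all 54675 probe sets the arrays had medians of 4.24 (syk-wt) and 4.26 (mock) on the log2 scale, and 2189 probe sets carried exactly the same value on both. The 3' minus 5' difference of the ACTB control probe sets, which tracks RNA integrity, was 2.37 on the syk-wt array and 1.95 on the mock array. For GAPDH it was 0.32 (syk-wt) and 0.19 (mock). The part of RNA integrity in the differences below was not tested. SYK itself did not check the labels, since its brightest probe set read 4.73 on the syk-wt array and 4.27 on the mock array, both at or below the control level defined below, so each direction rests on the labels. All 5 epithelial markers were above the control level on both arrays, with a summed level (log2 of the sum of linear intensities) of 13.4 on the syk-wt array and 13.8 on the mock array. Their differences, syk-wt minus mock, lay between -1.45 for KRT19, whose other probe set differed by -0.37, and 0.30 for EPCAM, with 4 of the 5 below 0. Markers of other cell types lay at or below the control level on both arrays. Their summed levels were 5.43 (syk-wt) and 5.33 (mock) for 3 leukocyte genes, 5.54 (syk-wt) and 5.66 (mock) for 3 endothelial genes, and 5.84 (syk-wt) and 5.58 (mock) for 4 fibroblast genes.

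The 4 windows around annotated starts, each of 250 bases before and 50 after, pair genes of the same paralogue number. HOXC4 and HOXB1 were above the control level of 4.77 defined below on both arrays, and HOXD4 and HOXD1 were not. That contrast rests on 1 control probe set, since HOXD4 and HOXD1 also exceeded the second highest control, 3.61. HOXB1 passed by its brighter probe set and not by the other. The windows are given 5' to 3' with the CG dinucleotides in capitals, from RefSeq on GRCh38.p14. The HOXC4 window (chr12:54016638-54016937, plus strand) is also that of HOXC5, since both models start at the same base, and is set beside the HOXD4 window (chr2:176151300-176151599, plus strand). The HOXB1 window (chr17:48530962-48531261, minus strand) is set beside the HOXD1 window (chr2:176188418-176188717, plus strand).
HOXC4: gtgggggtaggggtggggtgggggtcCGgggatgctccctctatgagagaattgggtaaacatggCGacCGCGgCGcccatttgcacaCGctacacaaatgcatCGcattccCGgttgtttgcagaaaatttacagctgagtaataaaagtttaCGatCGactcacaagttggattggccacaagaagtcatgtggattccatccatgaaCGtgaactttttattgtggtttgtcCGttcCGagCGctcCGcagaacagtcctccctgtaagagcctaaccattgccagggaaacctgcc
HOXD4: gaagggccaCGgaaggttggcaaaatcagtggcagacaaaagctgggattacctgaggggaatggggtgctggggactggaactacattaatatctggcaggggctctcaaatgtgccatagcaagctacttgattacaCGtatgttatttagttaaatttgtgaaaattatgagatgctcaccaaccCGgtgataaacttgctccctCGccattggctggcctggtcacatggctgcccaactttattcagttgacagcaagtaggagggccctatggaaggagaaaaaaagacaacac
HOXB1: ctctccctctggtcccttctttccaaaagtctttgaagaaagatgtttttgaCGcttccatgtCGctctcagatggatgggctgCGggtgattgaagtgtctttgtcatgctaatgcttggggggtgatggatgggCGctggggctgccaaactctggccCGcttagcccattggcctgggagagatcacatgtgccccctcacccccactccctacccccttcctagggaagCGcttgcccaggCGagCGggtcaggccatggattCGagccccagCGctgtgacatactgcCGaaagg
HOXD1: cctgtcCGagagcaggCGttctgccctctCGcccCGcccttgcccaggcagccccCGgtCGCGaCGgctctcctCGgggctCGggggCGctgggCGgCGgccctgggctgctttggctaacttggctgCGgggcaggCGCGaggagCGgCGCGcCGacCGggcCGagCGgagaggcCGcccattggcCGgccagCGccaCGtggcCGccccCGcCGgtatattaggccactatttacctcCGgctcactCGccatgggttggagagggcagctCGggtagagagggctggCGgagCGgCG
The HOXC4 window held 15 CG dinucleotides against 4 in the HOXD4 window, while the HOXB1 window held 11 against 36 in the HOXD1 window. The median over 34941 windows was 14. Windows were at hand for 11 of the 28 members, and the table used here had none for the other 17. The HOX core motif TAAT, searched on both strands, occurred in 8 of these 10 distinct windows and in 50.3% of all windows. The composite HOX and PBX motif TGATNNAT, which can contain TAAT, occurred in 3 of the 10, those of HOXA2, HOXB1 and HOXD11, and in 7.42% of all windows.

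Among the 28 HOX genes analysed, signal above a control level on both arrays came from the HOXB and HOXC clusters. HOXA was read by HOXA2 alone, so the values do not show whether its other genes gave signal. Where a gene had several probe sets, the one brightest on average stood for it, and a level for dim signal was set at 4.77, the highest reading among 27 control probe sets against bacterial transcripts. Above that level on both arrays were 10 of 10 HOXB genes and 8 of 9 HOXC genes, but 0 of 8 HOXD genes and not HOXA2. Of all 19775 genes, 55.9% were above it on both arrays. The level rests on 1 control probe set, and with the second highest control, 3.61, the counts were 10 of 10 for HOXB, 8 of 9 for HOXC and 4 of 8 for HOXD, and HOXA2 passed as well. No HOX gene crossed the 4.77 level between the arrays. Probe sets differ in how strongly they bind, so a value says whether signal was seen and not how much RNA a gene had relative to another gene.

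**Figure D1:**
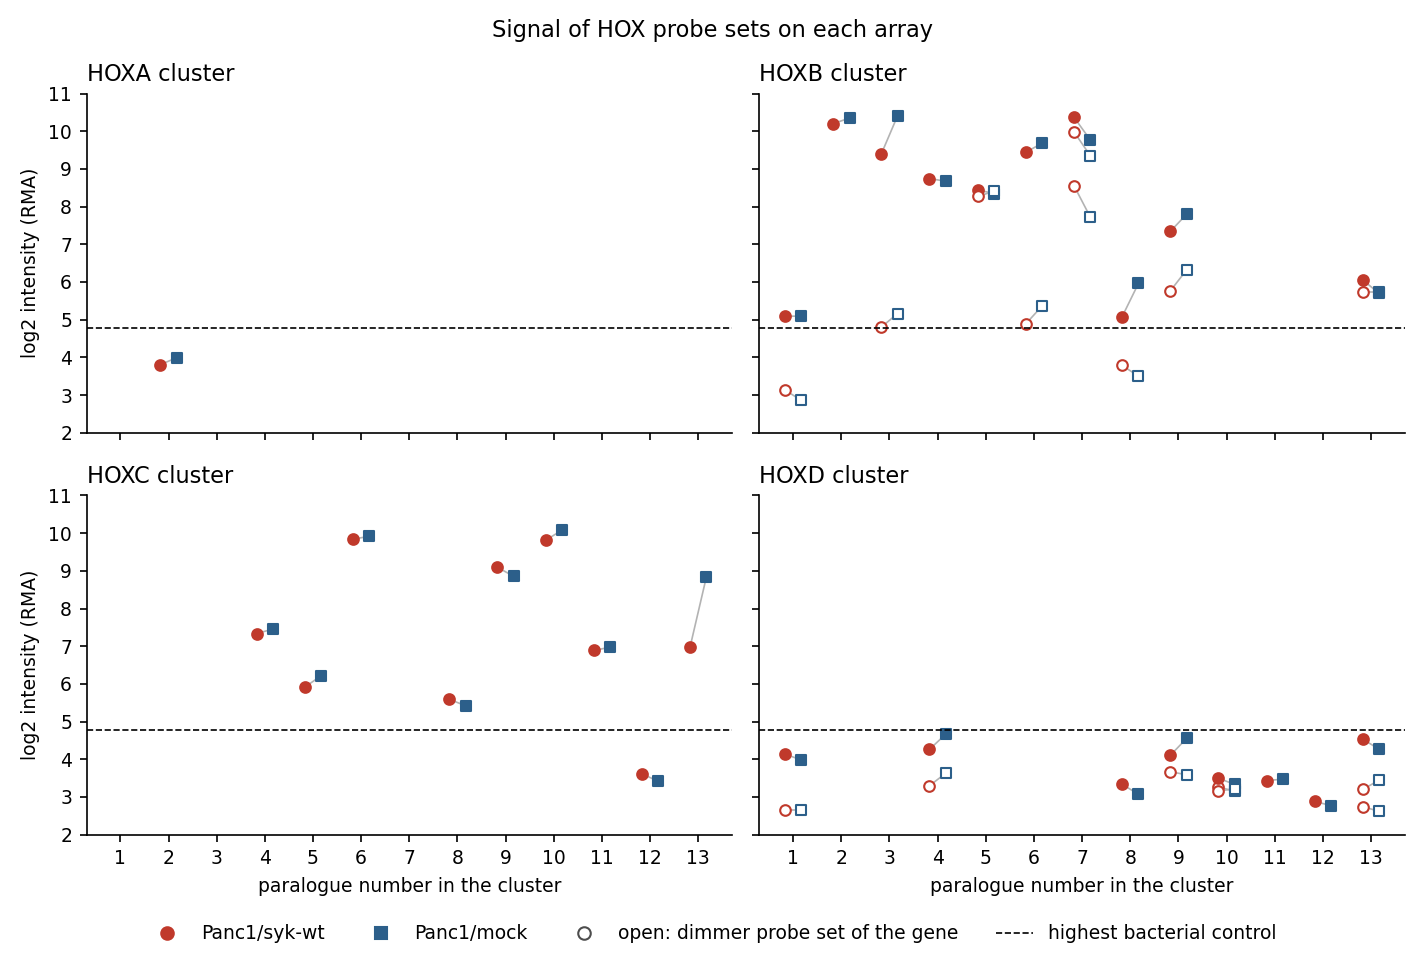
Log2 intensity (RMA, y axis) of each HOX probe set against the gene's paralogue number (x axis), 1 panel per cluster, with the syk-wt array as red circles, the mock array as blue squares and the dimmer probe sets of a gene as open symbols. The dashed line is the highest bacterial control at 4.77, and 10 HOXB and 8 HOXC genes lie above it on both arrays by their filled symbols, whereas HOXA2 and the 8 HOXD genes lie below it.

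In the anterior part of HOXB, HOXB1, a hindbrain gene, read 5.09 on the syk-wt array and 5.09 on the mock array, just above the control level, and its other probe set read 3.13 (syk-wt) and 2.86 (mock). HOXB2, its neighbour, read 10.20 on the syk-wt array and 10.35 on the mock array. HOXB3 read 9.40 on the syk-wt array and 10.41 on the mock array by its brighter probe set. The central genes HOXB4, HOXB5 and HOXB6 were likewise well above the control level by their brightest probe sets. HOXB4, known for its action on blood stem cells, read 8.74 (syk-wt) and 8.67 (mock). HOXB5 read 8.44 (syk-wt) and 8.35 (mock) by its brighter probe set, and 8.27 (syk-wt) and 8.41 (mock) by the other. HOXB6 read 9.44 (syk-wt) and 9.68 (mock) by its brighter probe set, and 4.89 (syk-wt) and 5.36 (mock) by the other. These genes gave signal in both populations, and the sign for HOXB5 depended on the probe set. HOXB13, the posterior gene that stands apart from the rest of the cluster and is best known from prostate, read 6.05 (syk-wt) and 5.69 (mock). Its other probe set read 5.73 on both arrays, the same value to all deposited decimals.

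In HOXC, HOXC4, HOXC5 and HOXC6 begin at the same base in RefSeq, so their annotated transcripts overlap. HOXC4 read 7.33 on the syk-wt array and 7.46 on the mock array, HOXC5 read 5.91 (syk-wt) and 6.22 (mock), and HOXC6 read 9.84 (syk-wt) and 9.92 (mock). Farther along, HOXC8 read 5.59 (syk-wt) and 5.42 (mock) and HOXC9 read 9.09 (syk-wt) and 8.85 (mock). HOXC10, a gene of the hindlimb and lumbar region, read 9.81 (syk-wt) and 10.08 (mock), and HOXC11 read 6.89 (syk-wt) and 6.97 (mock). Signal was thus read along the cluster up to HOXC11. It was not read for HOXC12, at 3.62 on the syk-wt array and 3.41 on the mock array. It was read again for HOXC13, the most posterior gene, which controls keratin genes in hair and nail, at 6.98 on the syk-wt array and 8.84 on the mock array.

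All 8 HOXD genes stayed between 2.88 and 4.53 on the syk-wt array and between 2.77 and 4.67 on the mock array. HOXD4 had the highest mock value of the cluster, 4.67, against 4.26 on the syk-wt array. HOXD13, the limb and digit gene, had the highest syk-wt value, 4.53, against 4.26 on the mock array, and its other 2 probe sets were lower on both arrays. HOXD9 read 4.10 on the syk-wt array and 4.55 on the mock array, and its other probe set differed by 0.08. HOXD1 had 1 probe set with an identical 2.66 on both arrays. HOXA2 read 3.81 on the syk-wt array and 3.99 on the mock array. No fold is given for these 9 genes or for HOXC12, because both of their values lay at or below the control level. A further 3 probe sets that the annotation shares between HOXD3 and HOXD4 read between 2.94 and 3.41 and were counted for neither gene.

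Differences between the arrays were small for most HOX genes. Genes entered the counts when their mean over both arrays reached 4.25, a value that marks the 50th percentile of the probe sets, which 21 of the 28 members reached (10 in HOXB, 8 in HOXC and 3 in HOXD). HOXA2, HOXC12 and 5 HOXD genes did not. Of the 21, 2 were at least 2-fold lower on the syk-wt array, HOXC13 and HOXB3, and 0 were at least 2-fold higher, against 7.26% of all 12814 genes past the filter that differed by that much in either direction (3.65% lower and 3.61% higher). With both arrays floored at 4.77 the same 2 HOX genes passed 2-fold, against 6.42% of all genes. The median difference, syk-wt minus mock, was -0.12 on the log2 scale over the 21 genes and 0.01 over the 12814 genes. It was -0.08 over 10 HOXB genes and -0.10 over 8 HOXC genes, and -0.41 over the 3 HOXD genes, whose values all lay at or below the control level. Over all 28 members, dim ones included, it was -0.06. How far probe sets of 1 gene disagreed gives some idea of precision, with a pooled SD of 0.35 for their log2 differences over 6028 genes, which covers probe behaviour and no variation between cultures. Of the 21 HOX genes 8 differed by more than that, 6 of them lower and 2 higher, against 44.3% of all genes past the filter. In 5 of the 13 HOX genes read by more than 1 probe set, all of them pointed the same way, a share not computed over all genes. The 5 were HOXB3, HOXB6, HOXB7 and HOXB9, above the control level in every probe set, and HOXD4, at or below it. Of the others, HOXB5 had opposite signs with every probe set above that level, and HOXB13 had a difference of 0 in 1 probe set. The rest had at least 1 probe set at or below it.

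**Figure D2:**
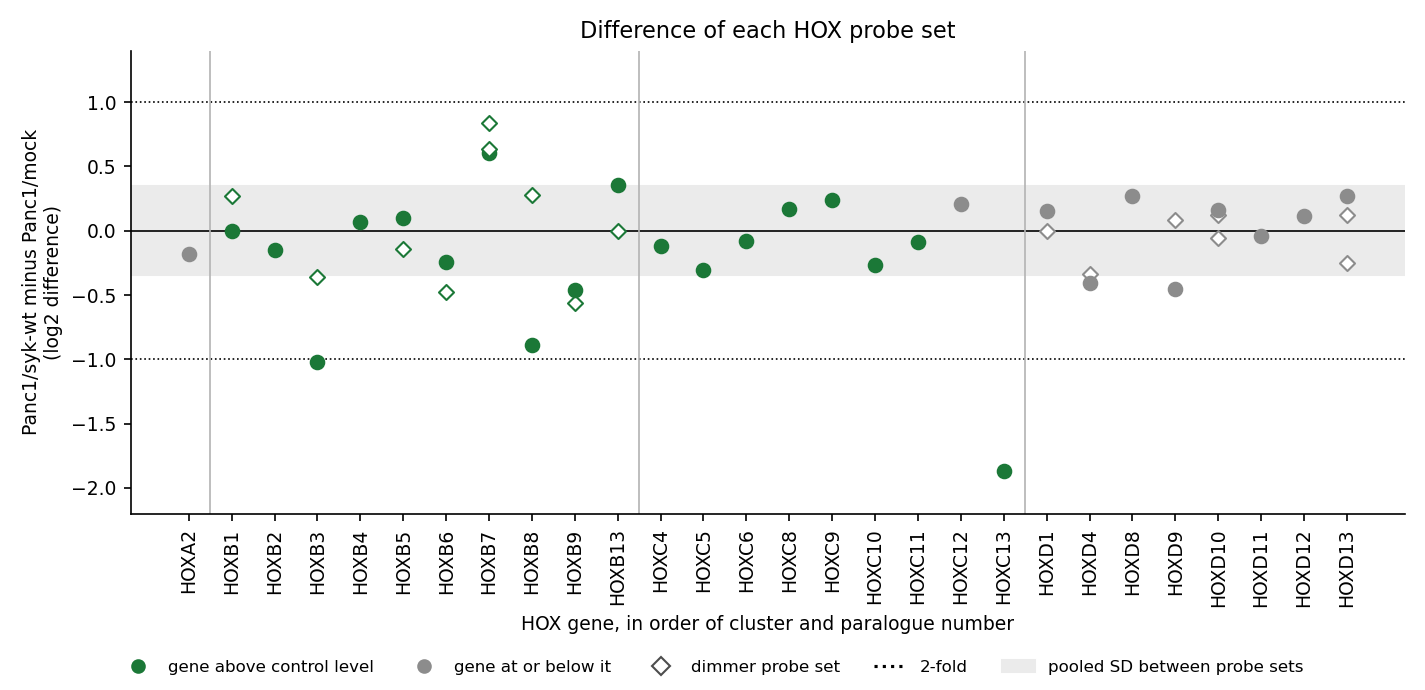
Log2 difference, Panc1/syk-wt minus Panc1/mock (y axis), for each HOX probe set, with genes ordered by cluster and paralogue number (x axis), filled circles for the brightest probe set and open diamonds for the others. Dotted lines mark 2-fold and the grey band the pooled SD of 0.35, and HOXC13 at -1.87 and HOXB3 at -1.02 are the genes beyond the lower dotted line.

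HOXC13 had the largest difference among the members, 3.64-fold lower on the syk-wt array (6.98 against 8.84 on the mock array, a log2 difference of -1.87). Both values were above the control level. It had 1 probe set, so no other probe set checks the value, and its RefSeq model overlaps that of HOXC13-AS. Fewer cells with the transcript and less of it per cell cannot be told apart in RNA from a whole population. Of the 12814 genes past the filter, 0.812% were lower by as much or more. Its neighbours within the cluster did not share the size of this difference, HOXC11 differing by -0.09 and HOXC10 by -0.27, and HOXC12 having no signal to compare. HOTAIR, a noncoding RNA studied for its link to Polycomb, lies between HOXC12 and HOXC11 in gene order, and its RefSeq model overlaps that of HOXC11. HOTAIR read 7.40 on the syk-wt array and 8.04 on the mock array, a difference of -0.64. Outside the posterior end of HOXC, CALCOCO1 differed by -0.37.

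HOXB3, by the brighter of its probe sets, was 2.03-fold lower on the syk-wt array (9.40 against 10.41 on the mock array, a difference of -1.02), just past the 2-fold mark. Of all genes past the filter 3.43% were as low. Its dimmer probe set read 4.80 on the syk-wt array and 5.16 on the mock array, a difference of -0.36 in the same direction. With each array centred on its median the difference was just under 2-fold, and averaged over both probe sets it was -0.69. The genes on either side, HOXB2 and HOXB4, differed by -0.15 and 0.07. The RefSeq model of HOXB3 spans HOXB4 and MIR10A, a microRNA gene of the cluster. The probe set annotated to MIR10A, looked up after its value had been seen, read 5.58 on the syk-wt array and 6.53 on the mock array, a difference of -0.95. The mature microRNA of this gene, shown with its seed in capitals and not itself read by such an array, is encoded at chr17:48579904-48579926 on the minus strand (GRCh38.p14, RefSeq).
hsa-miR-10a-5p: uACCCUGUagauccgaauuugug
The probe set of MIR10A and the brighter probe set of HOXB3 were lower by similar amounts, and the dimmer probe set of HOXB3 by less. Whether the probe set of MIR10A reads RNA of HOXB3 was not tested. HOXB4, which lies within the same HOXB3 model, was not lower. HOXB-AS1, a noncoding gene that also overlaps the HOXB3 model, was not lower either. It read 5.27 (syk-wt) and 5.18 (mock), a difference of 0.08, with 0.03 by its other probe set.

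HOXB7, a central gene studied in several carcinomas, was the HOX gene with the largest difference in the other direction. It was 1.52-fold higher on the syk-wt array (10.37 against 9.77 on the mock array), and 11.6% of genes past the filter were as high. All 3 of its probe sets pointed the same way, with differences of 0.60, 0.64 and 0.84. The second probe set read 9.99 on the syk-wt array and 9.35 on the mock array, and the third 8.56 on the syk-wt array and 7.72 on the mock array. These probe sets share 1 RNA sample per population, so their agreement does not bear on the difference between populations and preparations. HOXB-AS3, a noncoding gene of the central part of the cluster, read 6.53 on the syk-wt array and 6.17 on the mock array, with 5 probe sets that differed by between -0.20 and 0.90.

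The genes on the posterior side of HOXB7 were lower. HOXB8 read 5.07 on the syk-wt array and 5.96 on the mock array, a difference of -0.89 (1.85-fold lower), but its other probe set, at 3.78 (syk-wt) and 3.50 (mock), lay below the control level on both arrays and differed by 0.28. HOXB9 read 7.34 on the syk-wt array and 7.80 on the mock array, a difference of -0.46, with -0.56 by its other probe set. HOXB6, on the anterior side, differed by -0.24 and -0.47 in its 2 probe sets. HOXB7 and its neighbours therefore had opposite signs by their brightest probe sets, and none of these genes passed 2-fold. HOXB13 differed by 0.35 by 1 probe set and by 0 by the other.

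By position, the groups differed little. Past the filter, the 3 anterior genes (paralogues 1 to 3) had a median difference of -0.15 and ranged between -1.02 and -0.004, the 10 central genes (4 to 8) had a median of -0.10 and ranged between -0.89 and 0.60, and the 8 posterior genes (9 to 13) had a median of -0.18 and ranged between -1.87 and 0.35. The posterior 8 include HOXD9 and HOXD13 and the central 10 include HOXD4, all at or below the control level. Over all members, dim ones included, the median was -0.15 for 5 anterior genes, -0.08 for 11 central genes and 0.04 for 12 posterior genes, so the sign of the posterior median turned without the filter. HOXC genes other than HOXC13 lay between -0.30 and 0.24. The sign was negative in 14 of the 21 genes and positive in 7, against 6124 negative and 6506 positive among all 12814 genes past the filter. Of the 14, HOXD4 and HOXD9 lay at or below the control level on both arrays, and over all 28 members 16 were negative and 12 positive.

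**Figure D3:**
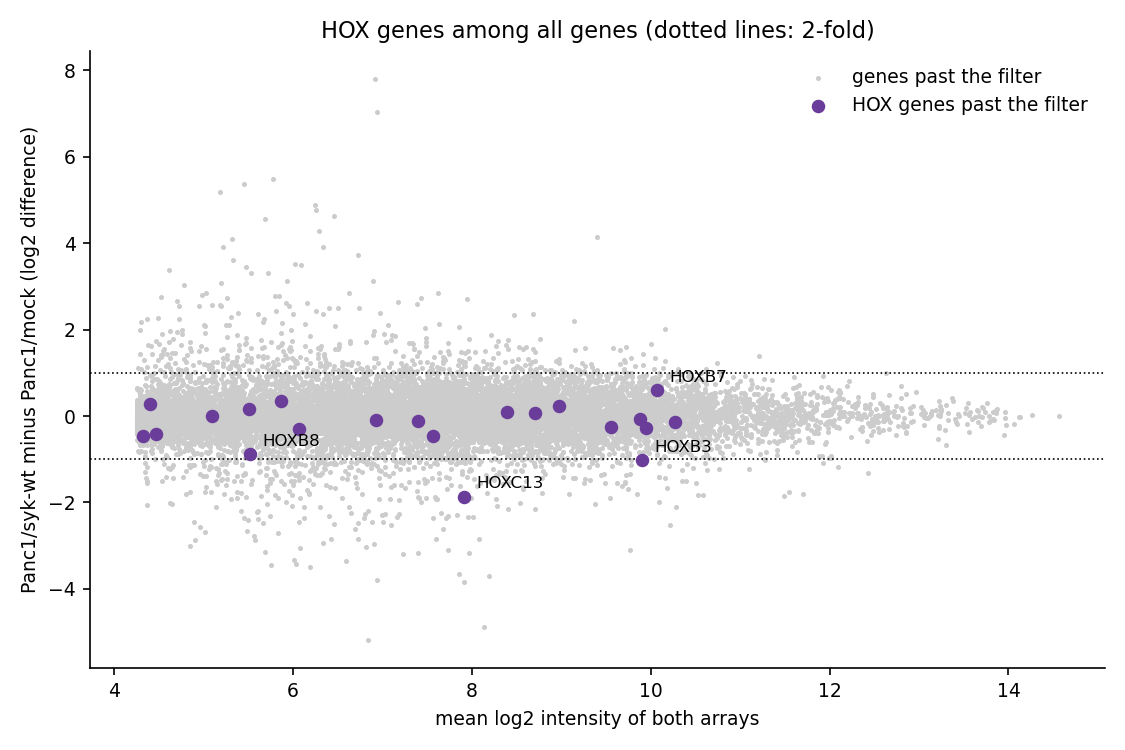
Log2 difference, Panc1/syk-wt minus Panc1/mock (y axis), against the mean log2 intensity of both arrays (x axis) for the 12814 genes past the filter in grey and the 21 HOX genes among them in purple. HOXC13 and HOXB3 lie beyond the lower 2-fold line and HOXB8 at -0.89 and HOXB7 at 0.60 within the lines, inside the spread of the other genes.

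Of the TALE partners of HOX proteins, 7 of 8 named genes were above the control level on both arrays. The same number, 7 of the 9 listed, passed the filter, of which 0 passed 2-fold, with a median difference of 0.11. Of all genes past the filter 7.26% passed 2-fold in either direction, so 0 among 7 lay near the background. PKNOX2 (0.47), PKNOX1 (0.47), MEIS3 (-0.38) and PBX3 (-0.30) differed most among them. The other probe set of MEIS3 differed by 0.10, the 5 of PKNOX1 lay between 0 and 0.47, and the 4 of PKNOX2 between 0.08 and 0.47. PKNOX1 read 7.12 on the syk-wt array and 6.66 on the mock array, while PBX3, a frequent partner of posterior HOX proteins in leukaemia, read 9.04 on the syk-wt array and 9.35 on the mock array. MEIS1, which did not pass the filter, read 4.53 on the syk-wt array and 3.20 on the mock array, both at or below the control level.

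Among Polycomb and Trithorax genes, 30 of 34 listed genes could be named and all 30 passed the filter. The median difference was 0.05. A single gene was at least 2-fold higher, against 3.61% of all genes past the filter, and 0 were lower by that much, so the count lay near the background. That gene was MLLT3, a reader of acetylated histones in the complexes that promote elongation at HOX genes, which was 5.37-fold higher on the syk-wt array (7.47 against 5.05 on the mock array). Its 3 probe sets differed by between 0.05 and 2.62, and their mean by 1.70. The Polycomb genes EED, at 9.72 (syk-wt) and 8.93 (mock), and MTF2, at 9.94 (syk-wt) and 9.21 (mock), differed by 0.78 and 0.73, although the lowest EED probe set differed by -0.10. KMT2A, the founding Trithorax methyltransferase of HOX genes, differed by -0.71 (8.54 on the syk-wt array and 9.24 on the mock array), with 11 probe sets between -0.75 and 0.18. The catalytic Polycomb subunit EZH2 differed by 0.19.

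Genes of retinoic acid handling had 3 members lower by 2-fold or more on the syk-wt array, and 0 higher by as much, among the 11 of 18 that passed the filter, with a median of -0.25. Of all genes past the filter 3.65% were lower by that much. Averaged over probe sets, ALDH1A3 differed by -0.55 and CYP26B1 by -0.70, which leaves CRABP2 alone past 2-fold. CRABP2, which carries retinoic acid to its nuclear receptors, was 8.54-fold lower (8.22 on the syk-wt array and 11.32 on the mock array). ALDH1A3, which makes retinoic acid, was 2.87-fold lower when read from the brighter of its probe sets (8.95 on the syk-wt array and 10.47 on the mock array), while its other probe set differed by 0.41. CYP26B1, which degrades retinoic acid, was 2.40-fold lower (5.0 on the syk-wt array and 6.26 on the mock array), with -0.13 by its other probe set. DHRS3, a retinaldehyde reductase, differed by -0.87. These genes make, bind and break down the ligand or its precursor. RDH10, which oxidises retinol, differed the other way, by 0.51 (8.20 on the syk-wt array and 7.69 on the mock array), with 4 probe sets between -0.07 and 0.68. Of the receptors, RXRA differed by -0.70 (-0.08 by its other probe set) and RXRB by 0.45 (3 probe sets between 0.12 and 0.45). RARA differed by -0.12 (5 probe sets between -0.32 and 0.15) and RARG by -0.25 (3 probe sets between -0.97 and -0.25), while RARB and RXRG were at or below the control level on both arrays.

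The noncoding genes of the clusters had 7 of 11 named members past the filter, of which 0 passed 2-fold, with a median of 0.05. With 7.26% of all genes past the filter at 2-fold or more, this count lay near the background. HOXD-AS2 read 6.60 on the syk-wt array and 5.80 on the mock array, a difference of 0.80, although no HOXD coding gene was above the control level. HOTTIP, at the posterior end of HOXA, read 6.12 (syk-wt) and 6.07 (mock) by 1 of its 3 probe sets, the other 2 lying below the control level on both arrays. HAGLR of the HOXD cluster differed by -0.25 with both values at or below the control level and its other 2 probe sets above 0. Of the related homeobox genes outside the clusters, 6 of 12 named passed the filter and 0 passed 2-fold, again near the background of 7.26%. MNX1 read 6.48 (syk-wt) and 6.19 (mock). CDX2 differed by 0.09, and GBX2 was at or below the control level on both arrays. EVX1, which borders HOXA, was at least 1.23-fold lower, the mock value of 5.07 being set against the control level, and the syk-wt value was 4.62. With both arrays floored its difference was -0.30, within the pooled SD of 0.35. The other probe set of EVX1 differed by -0.09.

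The coding genes that flank the clusters, 3 on each side, included 22 named genes, of which 20 passed the filter and 0 passed 2-fold, with a median of -0.15. Against 7.26% of all genes past the filter, 0 among 20 is a small shortfall from which nothing is concluded. HIBADH (-0.69) and SKAP2 (-0.61), on opposite sides of HOXA, HNRNPA3 (-0.57) beside HOXD, and SNX10 (0.50) beside HOXA differed most. Their probe sets did not all agree, those of SKAP2 lying between -0.87 and 0.58 and those of HIBADH between -0.69 and 0.08. SKAP2 read 9.87 on the syk-wt array and 10.48 on the mock array, and HNRNPA3 read 8.79 (syk-wt) and 9.36 (mock). Both were above the control level, where HOXA2 and the HOXD coding genes were not. EVX1, also beside HOXA, was above it on the mock array alone. Within these clusters the noncoding genes HOTTIP and HOXD-AS2 were above it on both arrays, and HOXA coding genes other than HOXA2 were not analysed.

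**Figure D4:**
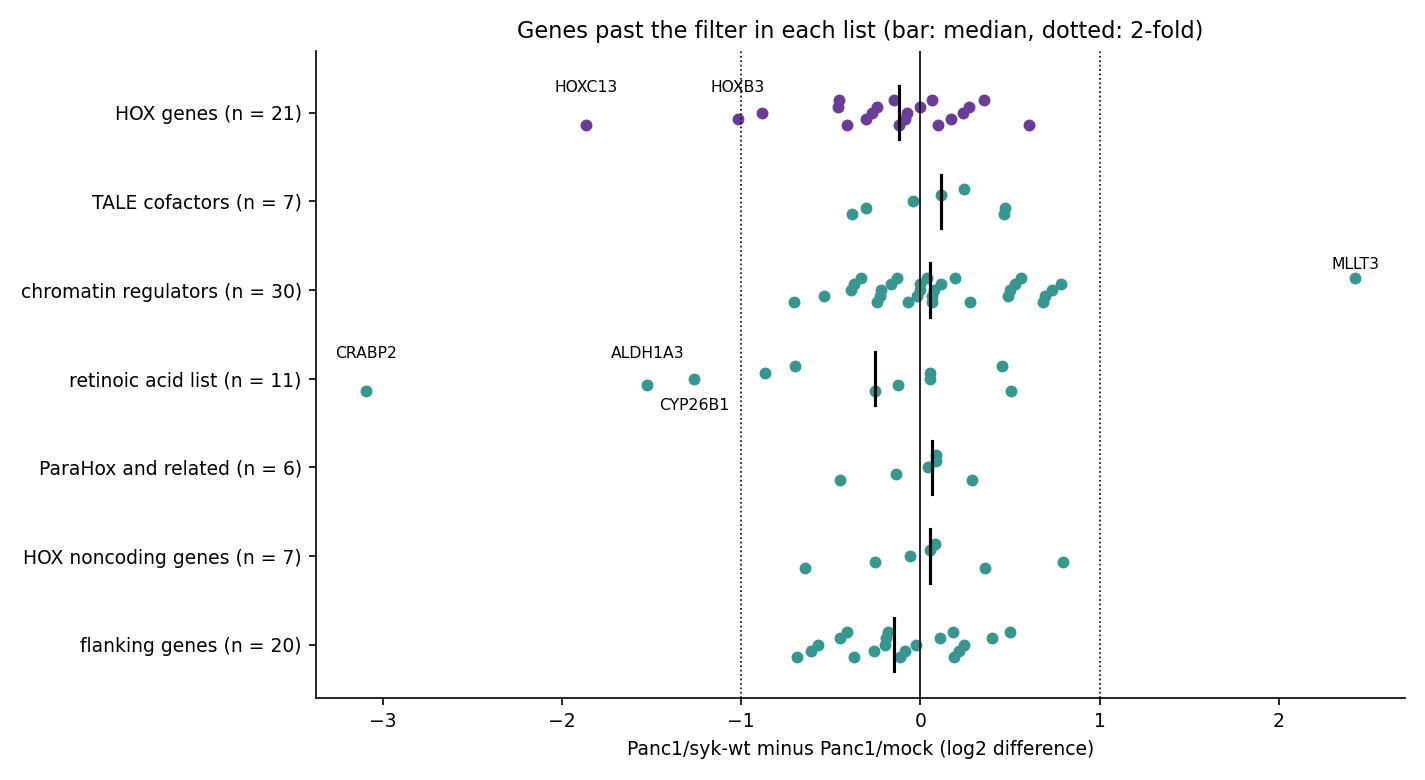
Log2 difference, Panc1/syk-wt minus Panc1/mock (x axis), of each gene past the filter in the HOX, TALE, chromatin, retinoic acid, related homeobox, noncoding and flanking lists (1 line per list), with the median as a black bar and 2-fold as dotted lines. HOXC13 and HOXB3 in the HOX list, 3 retinoic acid genes and MLLT3 lie past 2-fold, and the medians of these lists lie between -0.25 and 0.11.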

How the data were processed

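The deposited table holds 1 log2 intensity per probe set and array. The submitters' processing notes name RMA, which corrects background, aligns the arrays by quantiles and summarises the probes of a set. Its version and settings are not given in the sources used here, and the log2 scale was read from the values (2.14 to 14.6). RMA compresses differences between dim probe sets. Of 54675 probe sets, 41097 had 1 symbol in the platform annotation, 1801 carried several symbols and were named for none, and 11777 were not named here. Symbols were checked against RefSeq (GRCh38.p14), and 0 changed.

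Differences are syk-wt minus mock. The gene value (the probe set with the highest mean), the filter at 4.25, the 2-fold threshold and the level of 4.77 follow the text above. The 4.77 level was set with the values in view. Of lists other than HOX, up to 4 genes with the largest difference were named, all HOX members being described. Other names (KRT19, EPCAM, MIR10A, HOXB-AS1, EZH2, RDH10, the retinoic acid receptors, HOTTIP, CALCOCO1) were chosen after their values were seen. Members and lists were chosen with earlier results of these data known. The gene step was tested on simulated data with known differences. Alternatives were median centring, a loess trend removed (span 0.2), the mean over probe sets, plain _at probe sets alone, no filter, the 75th percentile filter and flooring at 4.77. The number of arrays limits the precision. Python 3.11.15 with pandas 2.3.3 and statsmodels 0.14.6 was used.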

Additional observations from a re-analysis of the deposited data

How the results depend on the processing

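The 7 alternatives left 0 HOX genes at least 2-fold higher. The count at least 2-fold lower was 2 and became 1 with median centring, where HOXB3 was just under 2-fold, 1 with the mean over probe sets, where HOXB3 differed by -0.69, and 1 with plain _at probe sets alone, where the HOXC13 probe set is left out by construction. HOXC13 differed by between -1.89 and -1.85 in the 6 alternatives that kept it. Among these, only median centring and the loess trend could move it, as it has 1 probe set and both values lie above 4.77. The median over HOX genes stayed between -0.15 and -0.06. The HOXD median over 3 genes, -0.41, was 0.13 without a filter and 0 with both arrays floored, since all HOXD values lie at or below 4.77. The retinoic acid median of -0.25 was -0.78 with the filter at the 75th percentile. The TALE median of 0.11 was -0.02 with plain _at probe sets. With the mean over probe sets HOXB8 differed by -0.30, ALDH1A3 by -0.55 and CYP26B1 by -0.70, and PKNOX1 differed by 0.11 with plain _at probe sets. The number of HOX genes above the control level, 18, was 23 with the second highest control, 16 with the mean over probe sets and 13 with plain _at probe sets, alternatives chosen after seeing the data. Of 805 values of single genes under the alternatives, 782 moved by less than 0.35. Many of these could not move, so the count does not measure stability. A change of filter leaves the difference of a gene as it was, and median centring shifts every gene alike. The mean over probe sets cannot move a gene with 1 probe set. No HOXA gene passed the filter, so HOXA gave no median, and HOXD gave none with the mean over probe sets or the 75th percentile filter. No paired analysis was possible because each group has 1 array. With 1 array per group and dim HOXD and HOXA2 signal, differences of those genes were not detectable.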
